A study of Mus musculus with 6 samples.

Results

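The 9 genes described here encode writers and erasers of DNA methylation, the enzymes that make the erasers' co-substrate, and 2 chromatin regulators whose genes are linked to leukaemia. They are Dnmt3a, Dnmt3b, Tet1, Tet2, Tet3, Idh1, Idh2, Asxl1 and Bmi1. They were chosen by name, matched through their NCBI gene numbers, and make up 9 of the 23282 genes in the count tables. All 9 were detected in every one of the 9 libraries and passed the expression filter of the MLL-AF9 fit.

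RNA was sequenced from mouse blood-forming cells of 6 groups on a mixed 129/Sv and C57BL/6 background, to ask how Mll4 shapes the transcriptome of primary and transformed cells. Mll4, also named Kmt2d, encodes a methyltransferase of histone H3. LSK cells are lineage-negative, Sca1-positive, c-Kit-positive bone marrow cells, among which are the stem cells and early progenitors. They came from littermates of 2 months that all carried MxCre and had received polyIC, either Mll4f/f (1 library, labelled Mll4 deleted) or WT (1 library). MxCre is induced by interferon, also outside blood cells, and polyIC was given to both genotypes. Each LSK library was built from about 50 picked cells with PCR amplification. The other libraries came from whole bone marrow cells transformed by a retrovirus with MLL-AF9, a leukaemia fusion oncogene that lets them grow in culture, and had 14 days of growth. Mll4f/f cells infected after transformation with a Cre retrovirus are labelled Mll4 deleted (2 libraries), and those infected with the empty vector (EV) kept Mll4 intact (2 libraries). Both were sorted 5 days after that infection. In a second transformation, MLL4-/- marrow received MLL-AF9-neo together with FOXO3-IRES-GFP (2 libraries) or EV (1 library), was selected in G418 and sorted for GFP. FOXO3 is a forkhead transcription factor known for stress and quiescence programmes. These 3 libraries lacked Mll4 by label before transformation, whereas Cre-treated cells lost it afterwards.

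DNMT3A and DNMT3B place new methyl groups on cytosines of CpG dinucleotides, and DNMT1 with UHRF1 copies the pattern after replication. TET enzymes oxidise 5-methylcytosine and thereby start its removal. They need 2-oxoglutarate, which IDH1 makes in the cytosol and IDH2 in mitochondria by decarboxylating isocitrate. Mutant IDH enzymes of leukaemias instead make 2-hydroxyglutarate, which inhibits TET enzymes. ASXL1 is a partner of the deubiquitinase BAP1, which removes ubiquitin from histone H2A, and BMI1 is a subunit of Polycomb repressive complex 1, which adds it. In human myeloid leukaemia DNMT3A, TET2, IDH1, IDH2 and ASXL1 are recurrently mutated, and Bmi1 is needed in mice for self-renewal of blood stem cells.

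The promoters of the 3 genes that passed a test are shown first, because the enzymes that 2 of them encode act on CpG dinucleotides. They are RefSeq windows of the build GRCm38.p6, from 250 bases before to 50 bases after the annotated start, printed 5′ to 3′ along the gene's strand with CpG in capitals. For Dnmt3a, which has 3 annotated starts, 2 of the windows are shown.
Dnmt3b, chr2:153649199-153649498, plus strand: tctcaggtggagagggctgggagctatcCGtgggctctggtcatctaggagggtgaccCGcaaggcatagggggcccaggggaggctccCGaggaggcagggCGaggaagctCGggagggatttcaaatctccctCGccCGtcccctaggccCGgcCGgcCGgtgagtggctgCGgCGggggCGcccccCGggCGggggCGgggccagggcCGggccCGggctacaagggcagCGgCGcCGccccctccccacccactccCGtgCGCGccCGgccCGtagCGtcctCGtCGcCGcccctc
Idh2, chr7:80115301-80115600, minus strand: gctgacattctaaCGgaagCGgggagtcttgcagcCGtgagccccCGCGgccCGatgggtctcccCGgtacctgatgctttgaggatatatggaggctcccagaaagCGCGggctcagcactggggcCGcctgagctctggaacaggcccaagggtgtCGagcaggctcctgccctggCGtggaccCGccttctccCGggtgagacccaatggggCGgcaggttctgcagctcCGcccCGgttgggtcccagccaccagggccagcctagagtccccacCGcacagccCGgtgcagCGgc
Dnmt3a, first shown start, chr12:3806910-3807209, plus strand: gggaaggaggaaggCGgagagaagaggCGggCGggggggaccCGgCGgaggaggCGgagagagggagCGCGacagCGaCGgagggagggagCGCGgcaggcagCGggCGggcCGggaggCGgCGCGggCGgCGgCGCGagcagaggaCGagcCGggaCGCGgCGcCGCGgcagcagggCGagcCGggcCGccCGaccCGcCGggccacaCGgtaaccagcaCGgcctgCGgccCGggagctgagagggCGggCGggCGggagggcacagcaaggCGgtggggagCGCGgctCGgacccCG
Dnmt3a, second shown start, chr12:3891494-3891793, plus strand: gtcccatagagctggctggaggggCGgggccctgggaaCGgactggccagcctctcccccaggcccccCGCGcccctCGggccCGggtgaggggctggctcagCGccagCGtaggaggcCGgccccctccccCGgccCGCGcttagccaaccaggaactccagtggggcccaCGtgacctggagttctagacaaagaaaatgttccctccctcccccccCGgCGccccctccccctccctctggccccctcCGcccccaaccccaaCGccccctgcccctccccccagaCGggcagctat
The Dnmt3b window held 30 CpG, that of Idh2 20, and those of Dnmt3a 47 and 18, beside a median of 7 over 32851 promoters of the same length. All 12 windows of the 9 genes lay above that median, from 13 CpG for Asxl1 to 57 for Tet2, which is more than in 99.8% of promoters. The letters GGGCGG, a GC box, occurred on either strand in all 12 windows, against 35.7% of all promoters. These letters hold a CpG, and no share among promoters of like CpG content was taken. The 12 windows are not all separate, since the Dnmt3a window not shown overlaps the first one shown. CCAAT stood in 3 windows, of Idh1, Idh2 and Tet3, against 37.4% of all. CACGTG stood in 2, of Bmi1 and Dnmt3a, against 7.15%. The FOXO core GTAAACA, found in 3.65% of promoters, stood in none of the 12. Neither did TATAAA (13.6%), the ETS letters CCGGAAGT (3.89%) or the E2F letters TTTCGCGC, TTTCCCGC and TTTGGCGC (1.84% for any of them). CACGTG reads the same on both strands, and each other motif was sought on both.

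Library totals ranged from 25895041 to 61950773 counts, and levels are given as CPM, a library's counts scaled to a total of 1000000. Fold changes, and the amounts by which a gene is said to rise or fall, are log2 values unless written as -fold. Kmt2d did not fall in the libraries labelled Mll4 deleted: it had 13.9 CPM there and 1.88 in wild type LSK cells, and 95.6 and 73.7 CPM against 79.5 and 61.7 in intact MLL-AF9 cells. In the second transformation, labelled as lacking Mll4, it had 102 and 115 CPM with FOXO3 and 116 with EV, above both intact libraries. Counts over the whole gene do not test the loss of a part of it, so the labels are used as given. Foxo3 had 1292 and 1309 CPM in the FOXO3 libraries against 27.3 with EV. By Xist and Ddx3y, 1 library of each Cre or EV pair is female and the other male, so these pairs came from different animals, and the second transformation is male throughout. Nothing in the labels says whether the FOXO3 pair came from separate cultures, and it differed little beyond sampling noise (chi-square per degree of freedom 1.97, against 191 and 146 in the other pairs). Its agreement lowers the spread shared by the fit, so each call of a member is also given with that pair summed to 1 library, and calls of other genes by count or by name.

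**Figure D1:**
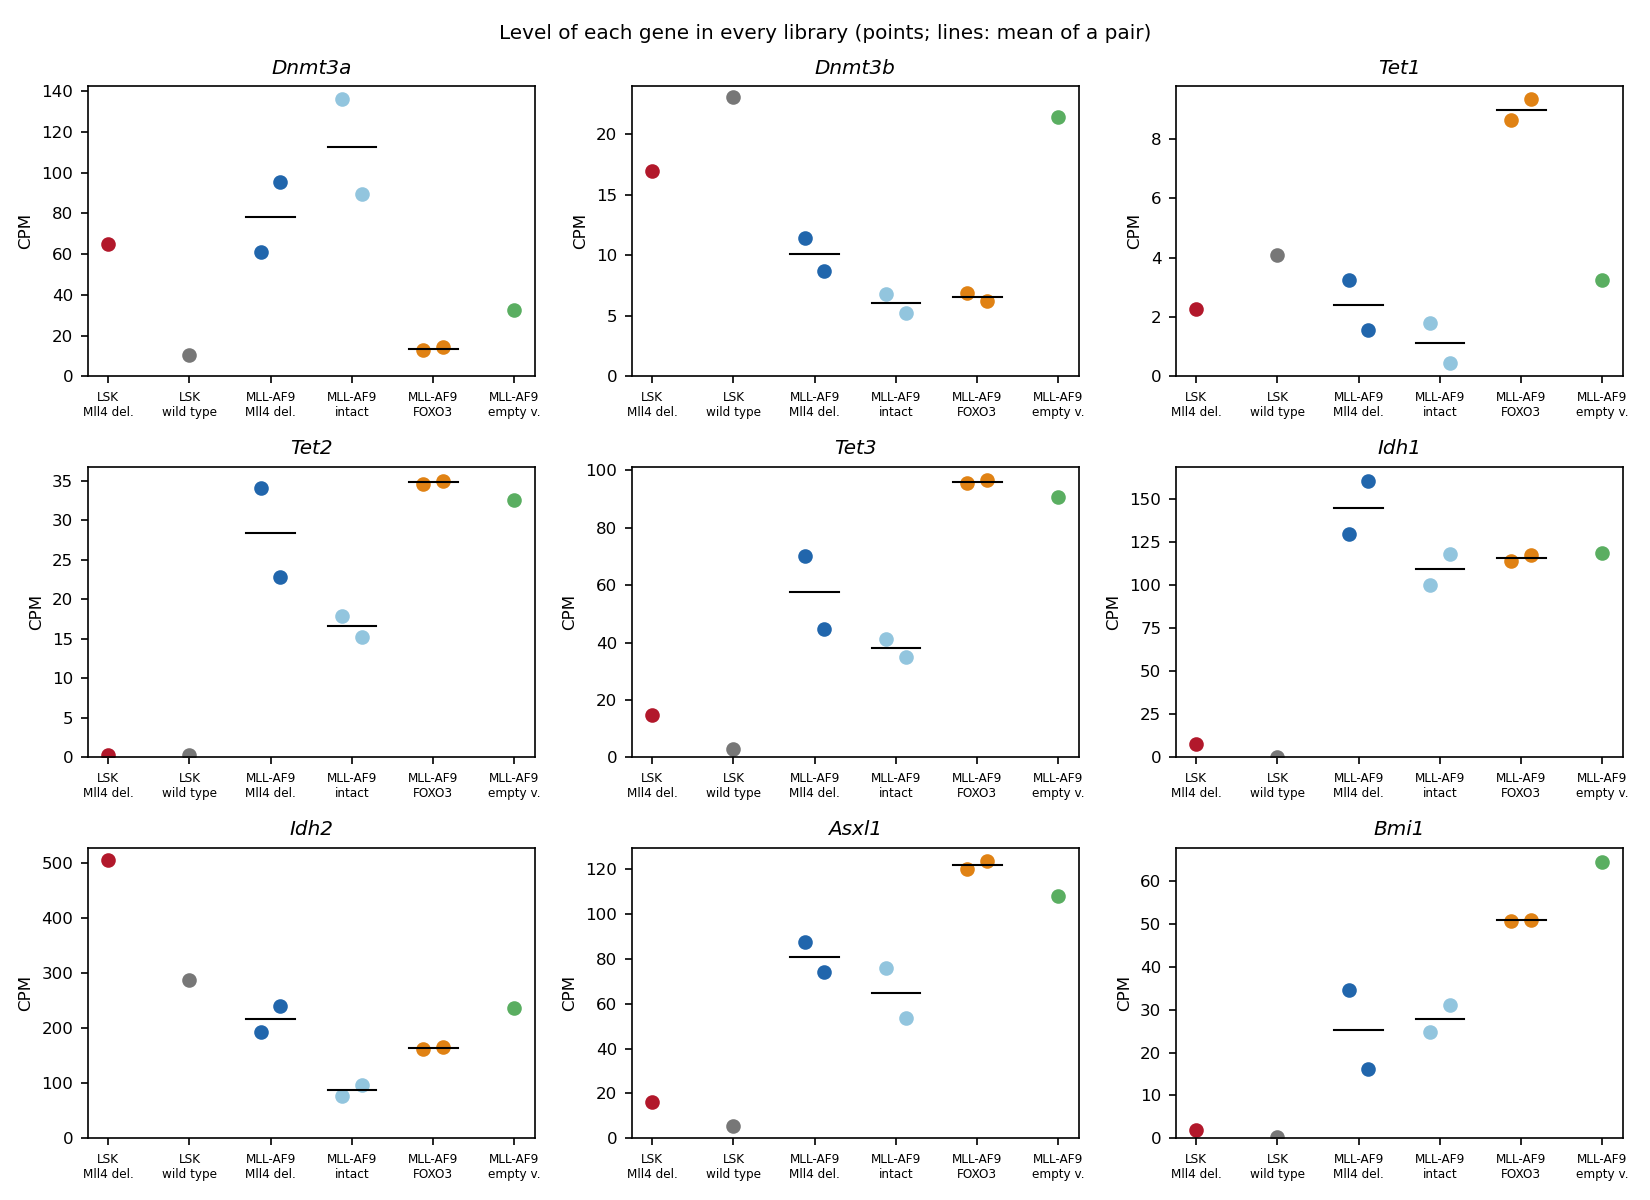
Level of the 9 genes in all 9 libraries, in CPM on a linear axis that starts at 0, each point 1 library and each line the mean of a pair. In MLL-AF9 cells Dnmt3a ran from 13.0 to 136 CPM, whereas Idh1 kept between 100.4 and 161 CPM.

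Divided by the length of their exons, which allows levels to be compared between genes, Idh2 and Idh1 led the set in MLL-AF9 cells and Tet1 came last in each of those 4 groups. Idh2 had 74.4 and 92.6 CPM per kb in the libraries labelled Mll4 deleted, against 29.9 and 37.2 in intact ones. Idh1 had 46.8 and 58.0 CPM per kb there, against 36.2 and 42.7 in intact ones. The order of the pair of enzymes thus differed: Idh2 lay above Idh1 in both libraries labelled Mll4 deleted and below it in both intact ones. By group mean Asxl1 and Bmi1 came next, Asxl1 with 7.22 to 16.6 and Bmi1 with 4.05 to 16.2 CPM per kb over the 7 MLL-AF9 libraries. Dnmt3a (0.781 to 8.18), Tet3 (2.09 to 5.78), Dnmt3b (1.03 to 4.20) and Tet2 (0.905 to 2.07) followed, and the ranges of neighbours from Asxl1 to Tet2 overlapped. Tet1 had 0.030 to 0.604 CPM per kb and lay below every other gene of the set in all 7 MLL-AF9 libraries.

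Among MLL-AF9 cells, loss of Mll4 through Cre went with more Idh2 RNA, the only 1 of the 9 genes that passed the test. Idh2, the mitochondrial isocitrate dehydrogenase, had 193 and 239.5 CPM in the 2 libraries labelled Mll4 deleted, against 77.4 and 96.3 CPM in the 2 intact libraries. Both deleted libraries lay above both intact ones, and the gap between the groups was wider than the difference within either pair. Its log2 fold change was 1.02 ± 0.20 (SE), a 2.03-fold rise, with an adjusted p of 0.0281 (edgeR's quasi-likelihood test, Benjamini-Hochberg over 14997 genes, 7 libraries in the fit). Of all genes tested, 14.9% passed in this comparison, so 1 of 9 is near the background. With the FOXO3 pair summed the fold change was 1.10 ± 0.23 with an adjusted p of 0.0765, and none of the 9 passed by edgeR, where 2.08% of genes did; 2 of them had an unadjusted p under 0.05, and DESeq2 on all libraries called 2, beside 24.6% of genes. The call was also lost without the second deleted library (adjusted p 0.0516, edgeR), without the first intact library (0.0744) or with the sex of the library as a term, an alternative added after the data were seen (0.0577). The male libraries gave a log2 ratio of 1.49 for Idh2, deleted over intact, and the female ones 0.72.

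Dnmt3a, the de novo methyltransferase most often mutated in human myeloid leukaemia, did not pass. It had 60.9 and 95.3 CPM in the libraries labelled Mll4 deleted, against 136 and 89.3 CPM in intact ones. The groups overlapped in CPM, because the male deleted library exceeded the female intact one. Within each sex the deleted library was the lower, by a log2 ratio of -0.83 in female and -0.66 in male libraries. The log2 fold change was -0.80 ± 0.26 (adjusted p 0.0902, edgeR). With the sex of the library as a term it was -0.81 ± 0.10 with an adjusted p of 0.0286, and DESeq2 gave 0.0271. With the FOXO3 pair summed the adjusted p was 0.201 by edgeR. Dnmt3b, its close relative, had 11.5 and 8.67 CPM in deleted libraries against 6.80 and 5.25 CPM in intact ones. These groups did not overlap in CPM, and the log2 fold change of 0.47 ± 0.20 did not pass (adjusted p 0.164, edgeR).

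**Figure D2:**
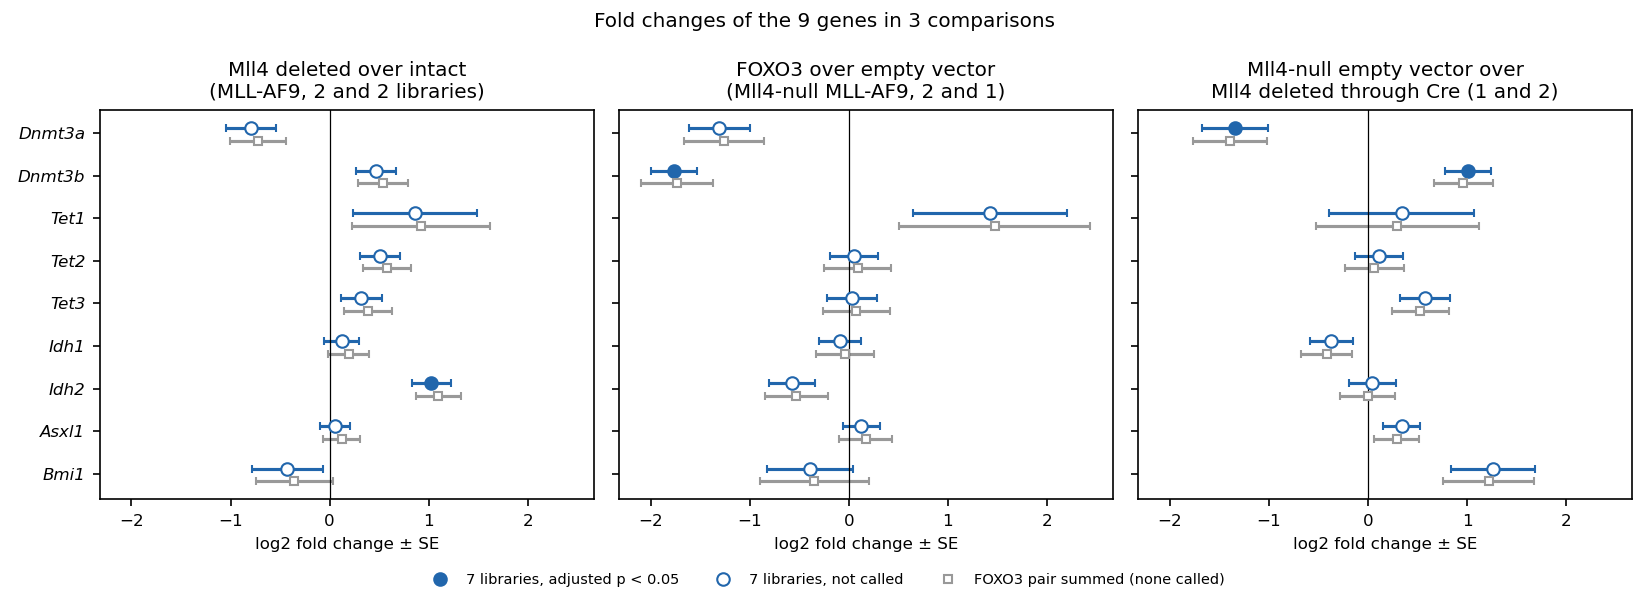
Log2 fold changes ± SE of the 9 genes in the 3 comparisons of MLL-AF9 cells, with all 7 libraries (circles, filled where the adjusted p was under 0.05) and with the FOXO3 pair summed (grey squares). The filled circles are Idh2 in the first comparison, Dnmt3b in the second and both Dnmt3a and Dnmt3b in the last, and no square passed.

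The 3 TET genes had no member past the threshold after loss of Mll4. Tet2, which lacks the CXXC domain of the other two, had 34.1 and 22.8 CPM in libraries labelled Mll4 deleted against 17.8 and 15.3 CPM in intact ones. Tet3 had 70.1 and 44.8 CPM against 41.2 and 34.9 CPM. For both genes the groups did not overlap in CPM, yet the TMM-scaled log2 fold changes of 0.51 ± 0.20 and 0.32 ± 0.21 missed the threshold (adjusted p 0.141 and 0.337, edgeR). After TMM scaling the Tet3 groups overlapped, since the male deleted library lay just below the male intact one. Without the second deleted library both passed, Tet2 at 0.76 with an adjusted p of 0.0169 and Tet3 at 0.60 with 0.0207 (edgeR). The difference was mostly in the female libraries, with log2 ratios of 0.88 for Tet2 and 0.73 for Tet3, against 0.21 and -0.02 in the male ones. Each sex has a single deleted and a single intact library, so sex cannot be told apart from other differences between the libraries of a pair. Tet1, first found as a fusion partner of MLL in human leukaemia, had 3.24 and 1.55 CPM in deleted libraries against 1.79 and 0.465 CPM in intact ones. These groups overlapped, the within-sex log2 ratios were 2.52 in female and -0.35 in male libraries, and the fold change of 0.86 ± 0.62 did not pass (adjusted p 0.382, edgeR). Tet1 rested on 23 to 201 counts in these 4 libraries.

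**Figure D3:**
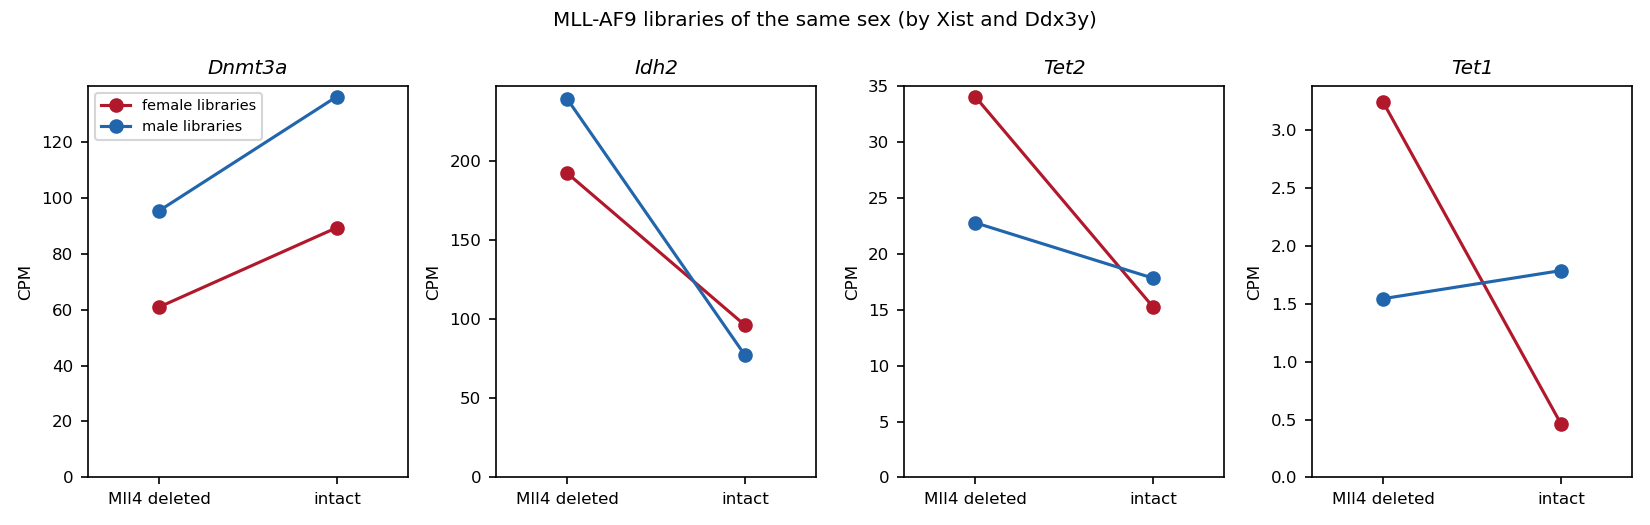
CPM of Dnmt3a, Idh2, Tet2 and Tet1 in the 4 Cre and EV libraries of MLL-AF9 cells, the library labelled Mll4 deleted left and the intact one right, joined within each sex. Dnmt3a was lower and Idh2 higher in the deleted library of both sexes, whereas Tet1 was higher in the deleted library of the female pair and lower in that of the male pair.

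Idh1, Asxl1 and Bmi1 changed little or unevenly with Mll4 loss. Idh1 had 129.6 and 161 CPM in deleted libraries against 100.4 and 118 CPM in intact ones, which did not overlap in CPM. After TMM scaling its log2 fold change was 0.12 ± 0.18 (adjusted p 0.673, edgeR). Asxl1 had 87.6 and 73.9 CPM against 75.8 and 53.7 CPM, with overlap and a fold change of 0.05 ± 0.15 (adjusted p 0.848). Bmi1 had 34.5 and 16.1 CPM in deleted libraries against 24.8 and 31.0 CPM in intact ones, so the deleted pair spanned the intact one. Its fold change of -0.43 ± 0.36 did not pass (adjusted p 0.452), and without the first deleted library it was -1.01 with an adjusted p of 0.0429 by edgeR. In CPM, 5 of the 9 genes were higher in deleted libraries with no overlap and none was lower, beside 59.0% of all genes with no overlap in either direction. The share of all genes that were higher with no overlap was not counted. After TMM scaling the deleted library was the lower for Idh1 in the female pair (log2 ratio -0.15) and for Tet3 in the male pair (-0.02). The median log2 fold change was 0.32 over the 9 genes and -0.03 over all genes tested. Scaling by total counts alone moved the median of all genes to 0.24, and Tet2 then passed at 0.78 with an adjusted p of 0.0475.

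Other cell features moved with this comparison. Of 30 cell cycle genes 26 rose and none fell, beside 7.97% and 6.94% of all genes, with a summed level of 4056 and 4856 CPM in deleted libraries against 1581 and 1614 CPM in intact ones. Of these, 18 passed with the FOXO3 pair summed. Of 16 macrophage genes 4 fell (3 with the pair summed), with sums of 7214 and 13914.5 CPM against 25807 and 37273.5 CPM, and all 4 defining macrophage markers were detected in each of these libraries. Of 7 genes of primary granules, which form early in neutrophil maturation, 5 rose (4 with the pair summed), with sums of 12205 and 14464 CPM in deleted libraries against 2818 and 3215 CPM in intact ones. Of 12 neutrophil genes 4 fell and 1 rose (2 and 1 with the pair summed), of 9 megakaryocyte genes 5 fell (2) and of 8 erythroid genes tested 3 fell (1). Of 7 mast cell and basophil genes none passed. Their sums were 12472 CPM in the female and 842 in the male deleted library, against 2074 in the female and 5197 in the male intact one. Of 12 stem and early progenitor genes 1 rose and 1 fell, with sums of 1215 and 437 CPM against 457 and 609 in the same order. The libraries of a pair thus differed in cell markers as well as in sex. The part of these features in the values of the 9 genes was not tested. In bulk samples fewer cells of a type and less RNA per cell cannot be told apart.

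In LSK cells 5 of the 9 genes were more than 2-fold higher in the library labelled Mll4 deleted and none was more than 2-fold lower. With 1 library per genotype there is no test, and the intervals given are 95% exact binomial (Clopper-Pearson) intervals that cover counting error only. Past 2-fold in either direction lay 63.0% of the 10174 genes of 1 CPM or more on average, 28.1% higher and 34.9% lower, and 5 of the 8 such genes of the set. Dnmt3a had 65.0 CPM (1682 counts) in the library labelled Mll4 deleted and 10.5 CPM (280) in wild type, a log2 ratio of 2.63 (interval 2.44 to 2.81). That is the opposite sign to MLL-AF9 cells, where the Dnmt3a groups overlapped in CPM. Tet3 had 14.9 against 2.97 CPM, a log2 ratio of 2.32 (1.97 to 2.69), and Asxl1 16.2 against 5.30 CPM, a log2 ratio of 1.61 (1.33 to 1.90). Idh1 had 198 counts in the library labelled Mll4 deleted and 3 counts in wild type, for 7.65 against 0.113 CPM and a log2 ratio of 6.08 (4.51 to 8.37). Bmi1 had 48 against 11 counts, a log2 ratio of 2.16 (1.20 to 3.26).

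The other LSK differences were smaller. Idh2, the most abundant of the set in both LSK libraries, had 506 CPM in the library labelled Mll4 deleted against 288 CPM in wild type, a log2 ratio of 0.81 (0.77 to 0.86). Dnmt3b had 17.0 against 23.1 CPM, a log2 ratio of -0.44 (-0.62 to -0.26), and Tet1 2.28 against 4.10 CPM, a log2 ratio of -0.85 (-1.33 to -0.38). Tet2 had 6 against 7 counts, and its interval of -2.03 to 1.61 leaves no difference detectable at this depth. Stem and progenitor markers were present in both libraries but did not all go 1 way. Kit had 101.5 CPM in the library labelled Mll4 deleted and 46.8 in wild type, Cd34 292 and 298, and Flt3 212 and 221. Ly6a, Hlf, Mecom and Procr were lower in the library labelled Mll4 deleted. They had 28.2, 73.4, 14.5 and 12.8 CPM there, against 80.2, 151, 30.3 and 181 CPM in wild type. The list of 12 stem and early progenitor genes summed to 1215 against 1801 CPM. The wild type library also held the erythroid factor Klf1 at 92.8 CPM, against 0 counts in the other. Summed over 30 cell cycle genes the level was 4351 CPM against 2574 CPM, and 11141 against 12123 genes were detected. Top2a, a gene of that list, lay the other way, at 52.2 against 75.0 CPM, as did Mki67 at 13.3 against 41.3 CPM. How many of the 30 genes went each way was not counted. No sex was assigned to the LSK libraries. Ddx3y had 14.4 CPM in the library labelled Mll4 deleted against 0.827 in wild type, and Xist 2.05 against 3.65 CPM. Genotype and a difference of sex cannot be told apart in this pair. The part of these features in the ratios was not tested. Csf1r, Itgax and Adgre1, which mark macrophages, had 0 counts in both LSK libraries. Cd68, another macrophage marker, had 50 counts (1.93 CPM) in the library labelled Mll4 deleted and 0 in wild type. Of 16 macrophage genes, 8 and 7 were detected, with sums of 89.1 and 96.1 CPM.

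With FOXO3 in Mll4-null MLL-AF9 cells, both de novo methyltransferases stood at lower levels, and Dnmt3b passed the test. Dnmt3b had 6.85 and 6.19 CPM in the FOXO3 libraries against 21.4 CPM with EV. That is 254 and 278 counts against 1126, and the EV library lay above every other MLL-AF9 library for this gene. The log2 fold change was -1.76 ± 0.23, or 3.40-fold lower (edgeR's quasi-likelihood test, adjusted p 0.0143). This was 1 of 9 genes called, beside 7.13% of all genes. With the FOXO3 pair summed it was -1.73 ± 0.36 with an adjusted p of 0.117, and none of the 9 passed by edgeR, where 1.19% of genes did; 2 had an unadjusted p under 0.05, and DESeq2 on all libraries called 2, beside 14.5% of genes. EV is a single library, so what belongs to that library and what belongs to its vector cannot be told apart.

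Dnmt3a had 13.0 and 14.2 CPM with FOXO3 against 32.5 CPM with EV, the lowest levels of this gene among MLL-AF9 libraries. The log2 fold change of -1.31 ± 0.30 missed the threshold (adjusted p 0.0663, edgeR), while DESeq2 gave an adjusted p of 0.00277. With the sex term edgeR gave -1.31 ± 0.12 and an adjusted p of 0.0228. The libraries of this comparison are all male, so the term cannot correct it for sex. It left the estimate as it was and lowered its SE. With the pair summed edgeR gave 0.278. Tet1 had 8.63 and 9.34 CPM with FOXO3 against 3.24 CPM with EV, its highest levels in any library, but the fold change of 1.42 ± 0.78 did not pass (adjusted p 0.351, edgeR). Idh2 had 163 and 165 CPM against 236 CPM, a fold change of -0.57 ± 0.23 (adjusted p 0.219). Bmi1 had 50.6 and 51.0 CPM against 64.5 CPM, a fold change of -0.39 ± 0.43 (adjusted p 0.662). The other 4 genes had fold changes between -0.09 for Idh1 and 0.12 for Asxl1. Asxl1 had 119.9 and 124 CPM against 108, Tet3 95.5 and 96.5 against 90.8, Tet2 34.7 and 35.0 against 32.6, and Idh1 114 and 117 against 119 CPM. All 9 genes lay on 1 side of the EV library, 4 higher and 5 lower, as did 90.6% of all genes tested. Their median log2 fold change was -0.09, beside -0.04 over all genes.

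Markers of other cells differed in this comparison as well. The 16 macrophage genes summed to 206 and 206 CPM with FOXO3 against 825 CPM with EV, and 9 of them fell (3 with the pair summed), beside 4.93% of all genes. Of 8 erythroid genes tested 7 fell (2 with the pair summed), and the erythroid list had a summed level of 7.60 and 6.37 CPM against 596 CPM. Of 7 mast cell and basophil genes 2 fell, with 308 and 310 CPM against 2756 CPM. With the pair summed edgeR called none of these 7, 3 had an unadjusted p under 0.05, and DESeq2 on all libraries called 3. None of the 30 cell cycle genes passed by edgeR, 1 had an unadjusted p under 0.05 and DESeq2 called 1. The part of these shifts in the levels of Dnmt3b and Dnmt3a was not tested.

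The EV cells of the second transformation were also set against the cells that lost Mll4 through Cre. Both carry the label of Mll4 loss with MLL-AF9, but they differ in transformation, vectors and the time of deletion, which cannot be told apart. Here 2 of the 9 genes passed, in opposite directions, beside 21.7% of all genes (9.54% higher and 12.2% lower). Dnmt3a had 32.5 CPM in the EV library against 60.9 and 95.3 CPM in the Cre pair, a fold change of -1.34 ± 0.33 with an adjusted p of 0.0405 (edgeR's quasi-likelihood test). Dnmt3b had 21.4 CPM against 11.5 and 8.67 CPM, a fold change of 1.01 ± 0.24 with an adjusted p of 0.0353. For both genes the EV library lay outside the range of the Cre pair. With the FOXO3 pair summed, the adjusted p by edgeR was 0.0886 for Dnmt3a and 0.118 for Dnmt3b, and none of the 9 passed, where 6.97% of genes did; 3 had an unadjusted p under 0.05, and DESeq2 on all libraries called 3, beside 30.0% of genes. Each call was also lost when either intact library was left out of the fit, at 0.0588 and 0.0595 for Dnmt3a and 0.0528 and 0.0533 for Dnmt3b. Dnmt3a was further lost without the second deleted library (0.0507), and Dnmt3b with the sex term (0.0703).

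Bmi1 did not pass in this comparison, though its fold change lay between those of Dnmt3a and Dnmt3b in size. It had 64.5 CPM in the EV library against 34.5 and 16.1 CPM in the Cre pair, with no overlap. Its fold change of 1.27 ± 0.42 missed the threshold (adjusted p 0.0856, edgeR), whereas DESeq2 gave 0.0234 and the sex term 1.75 with 0.0259. Tet3 (0.58 ± 0.25), Asxl1 (0.34 ± 0.18) and Idh1 (-0.37 ± 0.22) did not overlap between the groups and did not pass; in all, 6 of the 9 genes did not overlap, beside 81.9% of all genes. For Tet1, Tet2 and Idh2 the EV library lay between the libraries of the Cre pair. This comparison shares the EV library with the FOXO3 comparison and the Cre pair with the comparison for Mll4 loss, so their values are not independent. With the sex of the library as a term 1, 2 and 2 of the 9 genes passed for Mll4 loss, FOXO3 and the second transformation, beside 12.7%, 4.93% and 16.3% of all genes. The FOXO3 comparison is male throughout, so there the term does not correct for sex. For Dnmt3b the 3 fold changes were 0.47 for Mll4 loss, -1.76 for FOXO3 and 1.01 for the second transformation, and for Dnmt3a -0.80, -1.31 and -1.34.

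Cell markers differed strongly in the second transformation, where 9.54% of all genes rose and 12.2% fell. Of 16 macrophage genes 14 fell (12 with the FOXO3 pair summed), with a summed level of 825 CPM in the EV library against 7214 and 13914.5 CPM in the Cre pair. Of 8 erythroid genes tested 7 rose (5 with the pair summed), and the list summed to 596 CPM against 56.5 and 12.2 CPM. Of 9 megakaryocyte genes 4 fell and 2 rose, and with the pair summed 2 fell and none rose. Of 12 neutrophil genes 4 fell (3 with the pair summed). Of 30 cell cycle genes 11 rose, at 7494 CPM against 4056 and 4856 CPM. None of these 30 was called by edgeR with the pair summed, 16 had an unadjusted p under 0.05, and DESeq2 on all libraries called 19. The part of these features in the levels of Dnmt3a and Dnmt3b was not tested.

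Within families, the share of each member differed between libraries. Dnmt3a made up 62.0% and 77.1% of Dnmt3a and Dnmt3b together, per exon length, in the MLL-AF9 libraries labelled Mll4 deleted, against 86.0% and 83.9% in the intact ones. It made up 36.8% and 41.2% with FOXO3 against 31.8% with EV. Per exon length, Dnmt3b was thus the larger part in all 3 libraries of the second transformation and in none of the first. That order rests on the lengths used, 16642 bases for Dnmt3a and 5106 for Dnmt3b, which take in every annotated exon. In CPM Dnmt3a was the higher in these 3 libraries, at 13.0 and 14.2 against 6.85 and 6.19 with FOXO3. With EV it had 32.5 against 21.4 CPM. In LSK cells the share of Dnmt3a was 54.0% in the library labelled Mll4 deleted and 12.3% in wild type. Idh2 made up 61.4% and 61.5% of Idh1 and Idh2 in deleted libraries against 45.2% and 46.6% in intact ones, 60.5% and 60.1% with FOXO3 against 68.0% with EV, and over 98% in LSK cells. Tet3 was the main TET transcript in MLL-AF9 cells, with 64.9% to 71.8% of the family. Tet2 followed with 24.5% to 32.7% and Tet1 with 0.99% to 7.14%. In LSK cells Tet1 made up 14.0% in the library labelled Mll4 deleted and 57.8% in wild type, while Tet2 held 1.31% and 3.40%. These shares rest on few counts: 59, 6 and 385 of Tet1, Tet2 and Tet3 in the former and 109, 7 and 79 in the latter. Each comes from a single library amplified from about 50 cells, and they also depend on the exon lengths used.

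**Figure D4:**
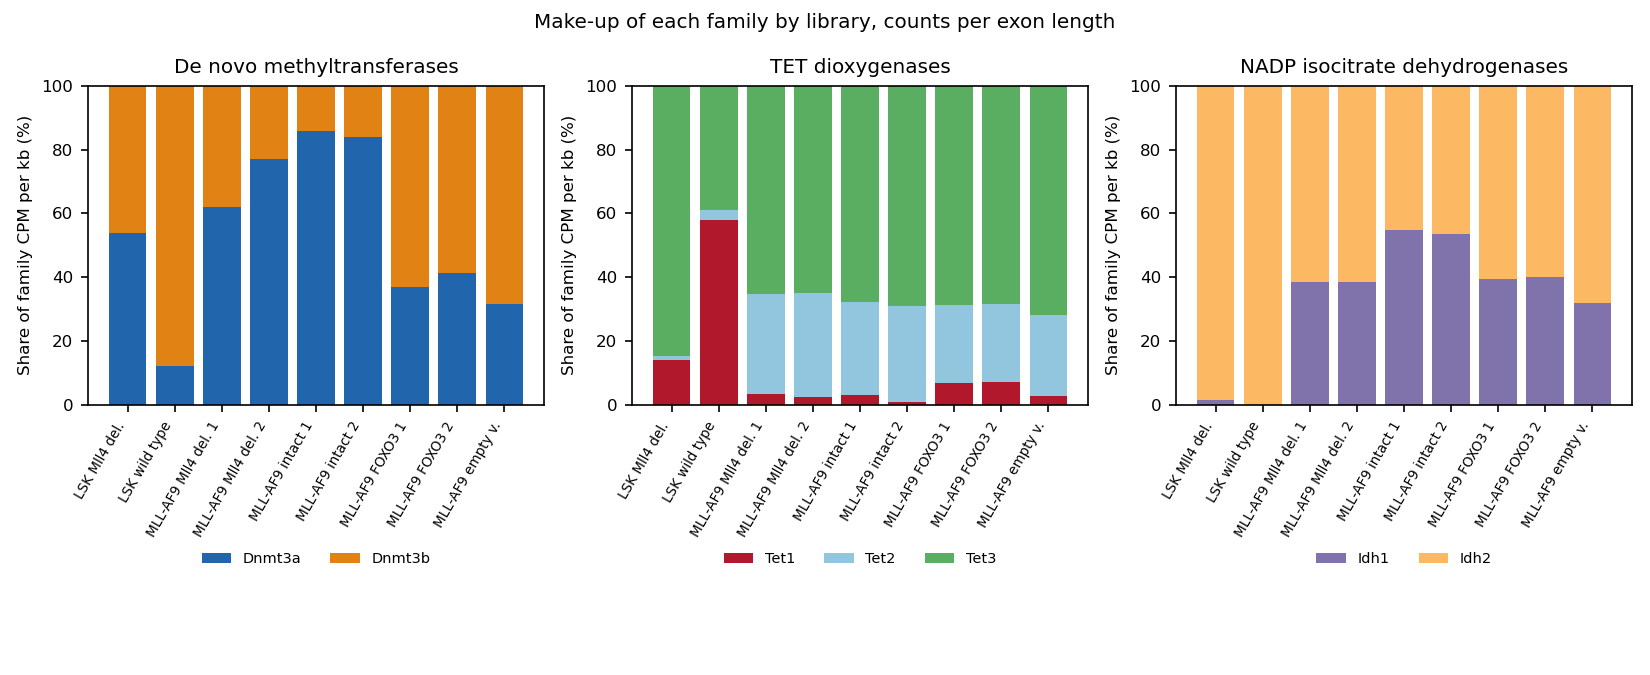
Share of each gene in its family per exon length, in percent, 1 bar per library. Dnmt3a falls below 50% in the second transformation and in wild type LSK cells, Tet3 leads in all MLL-AF9 libraries, and Idh2 makes up nearly all of the pair in LSK cells.

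LSK and MLL-AF9 libraries were made by different protocols, so their levels are set side by side with no test. Tet2 had 0.232 and 0.263 CPM in LSK cells and 15.3 to 35.0 CPM in MLL-AF9 cells. Idh1 had 7.65 and 0.113 CPM in LSK cells and 100.4 to 161 CPM in MLL-AF9 cells. Tet2 and Idh1 levels thus did not overlap between cell types, nor did those of Tet3, Asxl1 and Bmi1, which were also lower in LSK cells. Idh2 was the only gene of the set with higher CPM in both LSK libraries than in every MLL-AF9 library. The share of all genes without overlap between the cell types was not computed. The lack of overlap is therefore not read as a trait of these genes.

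The partner genes of the same pathways were counted from lists, none of which holds a member of the set. After Mll4 loss, 5 of 9 genes for DNA methylation maintenance and de novo partners rose and none fell, beside 7.97% and 6.94% of all genes. Uhrf1, which brings DNMT1 to newly copied DNA, averaged 139.6 ± 8.50 CPM in deleted libraries against 34.3 ± 0.560 CPM in intact ones (SD, n = 2 each), a log2 fold change of 1.74 ± 0.11. Dnmt1 itself averaged 247 ± 58.9 against 105 ± 4.32 CPM (0.96 ± 0.18), and the chromatin remodeller Hells and the corepressor Trim28 rose by 1.38 and 0.94. The adjusted p by edgeR was 0.0073 for Uhrf1, 0.0276 for Dnmt1, 0.022 for Hells and 0.0123 for Trim28. With the FOXO3 pair summed Uhrf1 alone of these passed (0.0484). These genes moved as the 30 cell cycle genes did, whose median was 1.34, and the part of the cell cycle was not tested.

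Of 22 genes of 2-oxoglutarate metabolism 5 rose and none fell after Mll4 loss, beside 7.97% and 6.94% of all genes. With the FOXO3 pair summed 1 of the 22 rose and none fell. In log2, fumarate hydratase, Fh1, rose by 1.05 ± 0.18 and the mitochondrial aminotransferase Got2 by 0.76 ± 0.15 (edgeR). Ogdhl rose by a log2 fold change of 3.55 ± 0.54, at 4.31 ± 1.08 CPM against 0.295 ± 0.182 CPM. With the FOXO3 pair summed none of these 3 passed, at adjusted p of 0.0658 for Fh1, 0.0858 for Got2 and 0.0579 for Ogdhl (edgeR). The median of the list was 0.19, beside 1.02 for Idh2 and 0.12 for Idh1.

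Of 15 genes for DNA demethylation and repair, Neil3, a DNA glycosylase, rose by 0.78 ± 0.11 in log2. Gadd45a and Gadd45g, stress-induced genes, fell by 2.26 and 1.56 in log2. Gadd45a averaged 19.4 ± 2.13 CPM in deleted libraries against 77.4 ± 26.1 CPM in intact ones. Of 7 methyl-CpG readers 2 fell, among them Zbtb4 (-0.79 ± 0.18). Among 9 tested partners of BAP1 and ASXL, Hcfc1 rose by 0.48 ± 0.11. Among 20 other subunits of Polycomb repressive complex 1, Cbx6 rose by 1.32 ± 0.12, Kdm2b by 0.98 ± 0.11 and Pcgf5 by 0.71 ± 0.10, and 1 gene fell. Of 11 genes of Polycomb repressive complex 2, which methylates histone H3, 3 rose: the catalytic subunit Ezh2 (0.88 ± 0.12) and the histone-binding subunits Rbbp7 (0.88 ± 0.12) and Rbbp4 (0.71 ± 0.10). With the pair summed, Gadd45a, Gadd45g, Cbx6 and Kdm2b passed and the others named here did not. All adjusted p-values of the genes said to rise or fall lay between 0.0073 and 0.0429 by edgeR. Among all genes tested 7.97% rose and 6.94% fell in this comparison.

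With FOXO3 few of these partners passed. Cxxc5, a CXXC-domain protein, had 0.819 ± 0.024 CPM in FOXO3 libraries against 16.2 CPM with EV, a fold change of -4.35 ± 0.66 (adjusted p 0.0208, edgeR). Gadd45g (-2.01 ± 0.30) and the Polycomb subunit Cbx2 (-2.46 ± 0.35) fell too, while Scmh1 rose by 0.66 ± 0.14 with an adjusted p of 0.0499. The background here was 2.20% higher and 4.93% lower. No gene of the lists for methylation maintenance, methyl-CpG readers, 2-oxoglutarate metabolism, BAP1 partners or Polycomb repressive complex 2 passed by edgeR, though of their 58 genes 12 had an unadjusted p under 0.05 and DESeq2 called 9. With the pair summed none of the 92 genes of all 7 lists passed by edgeR, and 12 had an unadjusted p under 0.05. In the second transformation, 4 of 9 maintenance genes and 5 of 11 genes of Polycomb repressive complex 2 rose, beside 9.54% of all genes, and of these lists Ezh1 fell. Among them were Uhrf1 by 0.84 ± 0.13, Hells by 1.49 ± 0.28, Ezh2 by 0.96 ± 0.14 and Suz12 by 1.34 ± 0.23. No gene of either list was called by edgeR with the pair summed, with adjusted p of 0.0680 for Uhrf1, 0.0577 for Hells, 0.0537 for Ezh2 and 0.0551 for Suz12. Of the 9 and 11 genes, 5 and 7 then had an unadjusted p under 0.05, and DESeq2 on all libraries called 5 and 7. The 3 libraries with the lowest Dnmt3a levels in MLL-AF9 cells had the highest of Dnmt1, with 538 and 554 CPM with FOXO3 and 431 CPM with EV.

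**Figure D5:**
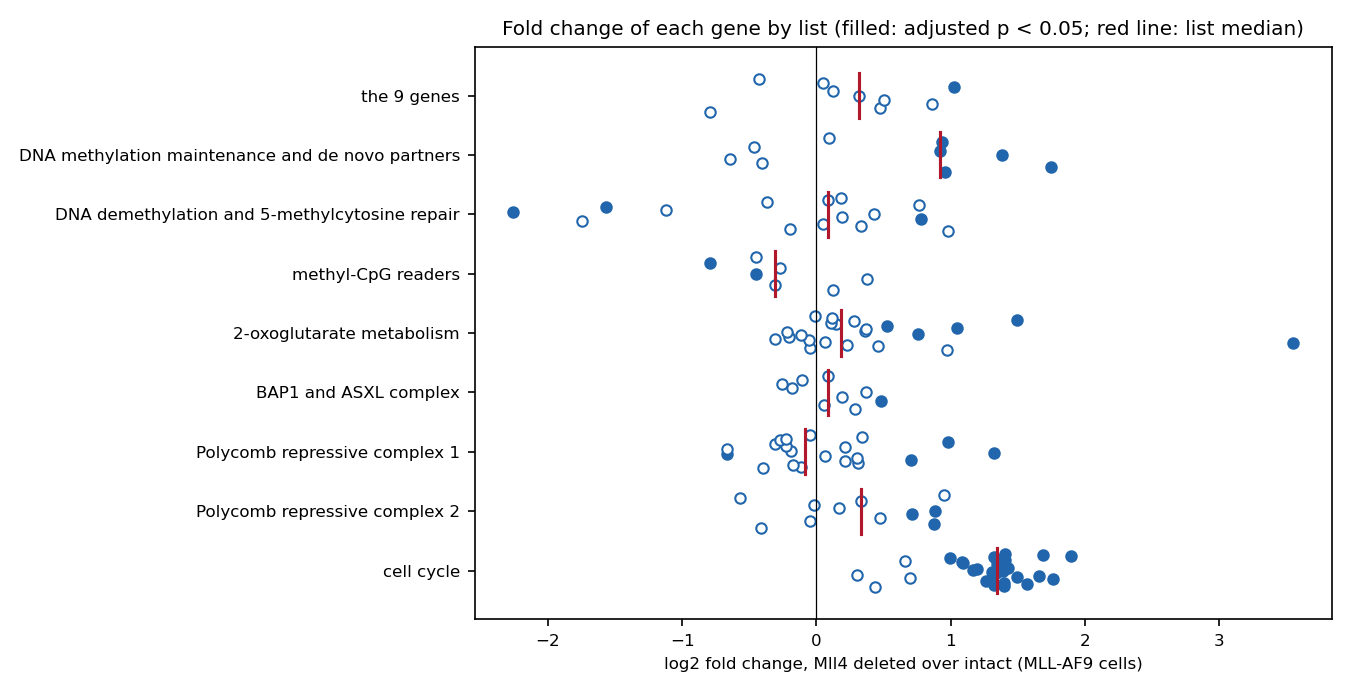
Log2 fold change of each gene after Mll4 loss in MLL-AF9 cells, 1 point per gene, by list, filled where the adjusted p was under 0.05, with the list's median as a red line. The medians run from -0.31 for methyl-CpG readers to 1.34 for the cell cycle, and that of the 9 genes is 0.32.

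Genes beside a member were checked because the counting's use of strand is not given. Dnmt3aos, a noncoding gene that overlaps Dnmt3a, had 0.307 and 1.23 CPM in deleted libraries against 2.79 and 1.90 CPM in intact ones, far below Dnmt3a. It had 1 count in each library of the second transformation, for 0.027 and 0.022 CPM with FOXO3 against 0.019 with EV. The EV library's 1 count, against 19 and 39 in the Cre pair, passed as lower (adjusted p 0.0432, edgeR, and 0.0919 with the FOXO3 pair summed), in the comparison where Dnmt3a was called lower as well. Reads of the overlap could count for either gene. Commd3, just before Bmi1, had 83.0 to 93.0 CPM over the 7 MLL-AF9 libraries and did not pass in any comparison. Nol4l, beside Asxl1, fell by 2.98 with FOXO3 (adjusted p 0.00579, edgeR, and 0.0376 with the pair summed), whereas Asxl1 did not pass.

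As a description, the genes most like each member over the 7 MLL-AF9 libraries were taken from 9286 genes of 10 CPM or more on average. The measure is Pearson's r of log2(TMM-scaled CPM + 1), and with 7 points that share library and group many genes reach high values. For Dnmt3a they were Mcoln2, Ly6i and Rap2a (r from 0.994 to 0.997), for Dnmt3b Def8, Maip1 and Atp5pb (0.958 to 0.993). For the TET genes they were Cdk19, Golim4 and Zfp777 (Tet1), Mfsd4a, Dynll2 and Entpd7 (Tet2), and Zfp770, Ugcg and Pan3 (Tet3). Idh1 went with Tbcb, Prkra and Pacc1, and Idh2 with Mrpl28, Rangap1 and Micos10. Asxl1 went with Rnf125, Ddx42 and Ankrd44, and Bmi1 with Zfp984, Tmx1 and Strn3. None of these 27 genes is a member of the set.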

How the data were processed

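The authors deposited raw read counts, 1 file per library with whole-number counts for 23282 NCBI gene numbers, from 9 libraries of 6 samples. The submitters' processing notes name mm9 as the build, with Bowtie 0.12.8 and TopHat2 2.0.11. Which counting tool, annotation and strand setting was used is not given in the sources used here. Names came from RefSeq and matched 23185 gene numbers; 97 did not match and stayed in totals and tests. Exon lengths came from GENCODE M21 and promoters from RefSeq on GRCm38.p6, another build, so no position was joined to the counts.

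The 7 MLL-AF9 libraries were fitted together with edgeR 4.0.16 (R 4.3.3): TMM scaling, its default expression filter, quasi-likelihood test, Benjamini-Hochberg adjustment over all genes tested and a threshold of 0.05. Contrasts were deleted minus intact (2 and 2 libraries), FOXO3 minus EV (2 and 1) and EV minus Cre-deleted (1 and 2). CPM is scaled by total counts alone, so its ratios differ from the TMM-scaled fold changes. After ± stands the SE of a log2 fold change or the SD of a CPM mean. LSK libraries were compared without a test. The smallest count of a member, 3, and the exact intervals cover counting error only, since PCR reads are not independent molecules.

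Alternatives were other scalings and filters, DESeq2 1.42.0, the FOXO3 pair summed, only the libraries compared, the library number as a block, the sex of the library as a term and each library left out. The fit was tested on simulated data. The members and gene lists were chosen with earlier results of these data known. Named genes were the 9 members, at most 4 per list with the smallest p in a comparison, the 3 genes most like each member, neighbours, Kmt2d and Foxo3; some genes that this rule names are not reported here. Outside it, Xist and Ddx3y gave the sex of libraries, and cell markers and Mki67 were named for LSK cells. Cdkn2a and Cdkn2b were chosen after their values were seen.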

Additional observations from a re-analysis of the deposited data

Results flagged for a closer look

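Dnmt3b moved in opposite directions with Mll4 loss in the 2 cell types. In LSK cells the library labelled Mll4 deleted had 17.0 CPM and the wild type one 23.1 CPM, a log2 ratio of -0.44 with a 95% exact interval of -0.62 to -0.26 for counting error alone. In MLL-AF9 cells both libraries labelled Mll4 deleted, at 11.5 and 8.67 CPM, lay above both intact ones, at 6.80 and 5.25 CPM. The difference between the cell types was not tested, since LSK cells have 1 library per genotype and were prepared by another protocol, and the fold change in MLL-AF9 cells did not pass on its own.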

How the results depend on the processing

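The counts of calls depended on the fit. For Mll4 loss 2237 genes and 1 member passed; total-count scaling gave 3540 and 2, DESeq2 3695 and 2, the FOXO3 pair summed 312 and 0, and the library number as a block 4191 genes. For FOXO3, 1069 genes and 1 member passed; DESeq2 gave 2178 and 2, the pair summed 178 and 0, the block 2181 and 3, and the sex term 2 members. Fitting only the libraries compared gave 9710 genes and 6 members for FOXO3, on the single residual degree of freedom of a near-technical pair, and 0 genes and 0 members for both other comparisons. For the second transformation 3260 genes and 2 members passed; the pair summed gave 1045 and 0, total counts 1 member and the block 1 member. With the pair summed and the sex term together, edgeR called 0 genes and 0 members in each comparison, at 2684, 1597 and 3020 genes of unadjusted p under 0.05. With only the libraries compared 3498 and 3299 genes had an unadjusted p under 0.05 for Mll4 loss and the second transformation, where DESeq2 on all libraries called 3695 and 4505.

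Leaving out 1 library at a time gave 302 to 3106 genes and 0 to 3 members for Mll4 loss, 140 to 2213 and 0 to 2 for FOXO3, and 1043 to 4920 and 0 to 4 for the second transformation. Without either FOXO3 library no member passed by edgeR in any comparison, as with the pair summed. For Mll4 loss 787 and 1199 genes passed without the first or the second intact library, for FOXO3 2213 and 2121 without the first or second deleted one, and for the second transformation 4920 without the first deleted one.

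Directions reversed only for genes that had not passed. For Mll4 loss, leaving out a library gave -0.064 to 0.34 for Idh1, -0.11 to 0.23 for Asxl1 and -1.01 to 0.014 for Bmi1. Idh1 reversed without the second deleted (-0.05) or the first intact library (-0.064), Asxl1 without the first deleted (-0.0040) or the second intact one (-0.11), and Bmi1 without the second deleted (0.014). For the second transformation, Tet1 became -0.23 with the block, and from -0.081 (without the second deleted library) to 0.93 without 1 library. Tet2 became -0.024 with the block, and from -0.14 (without the second deleted library) to 0.38. Idh2 became -0.0044 with upper quartile scaling, -0.019 with a filter of at least 5 CPM and -0.0037 with the pair summed. Without 1 library it lay between -0.16 and 0.21, negative without the first deleted (-0.16) or either FOXO3 library (-0.0036 and -0.0040). The causes were not tested. Library numbers were not taken as pairs: 2 pairs exist, and deviations of the same number correlated at 0.266 over 12422 genes. The block left the Idh2 call for Mll4 loss and the Dnmt3b call for FOXO3 and ended the Dnmt3a call of the second transformation (adjusted p 0.0725, edgeR).

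With 2 libraries or fewer per group, 1 EV library and 1 library per LSK genotype, a p that misses the threshold does not show that levels were alike. Counts as low as 23 for Tet1 in MLL-AF9 cells and 3 for Idh1 in LSK cells limit those ratios.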

Other observations

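Cdkn2a, the cell cycle inhibitor locus that BMI1 is known to repress in mice, was looked at after its values were seen. It had 138 and 28.1 CPM in MLL-AF9 libraries labelled Mll4 deleted against 74.6 and 42.2 CPM in intact ones, so the groups overlapped, and the log2 fold change was 0.25 ± 0.68 (adjusted p 0.829, edgeR's quasi-likelihood test). With FOXO3 it had 2.64 and 2.67 CPM against 44.3 CPM with EV, a fold change of -4.11 ± 0.86 with an adjusted p of 0.0502. Bmi1 had 50.6 and 51.0 CPM against 64.5 CPM in the same libraries. Cdkn2b, next to it, had 0.51 and 0.38 CPM with FOXO3 against 8.21 CPM with EV (adjusted p 0.0663). Both inhibitors had 0 counts in both LSK libraries.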
